A study of Homo sapiens with 45 samples.

Results

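Expression of 9 direct target genes of the transcription factor p53 was followed in 3 estrogen receptor-positive breast cancer cell lines. The targets are MDM2, CDKN1A, BTG2, ZMAT3, SESN1, RRM2B, TP53INP1, FAS and GDF15, and they were the 9 rows carrying those symbols among 57353 rows of the count table. No p53 protein, p53 binding or p53 activity was measured, and the p53 status of the lines was not given in the sources used here, so "p53 target" names what these genes are known as and not a state of these cells. MM134 and MM330 are lines of invasive lobular carcinoma and HCC1428 is a line of ductal carcinoma. With 1 ductal line, histology and line cannot be told apart.

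Every culture was kept for 3 days in medium with charcoal-stripped serum, which removes steroid hormones, and received siRNA 24 hours before treatment. Each line had 5 groups of 3 libraries, 45 in all. The group siNT received non-targeting siRNA and vehicle (0.01% ethanol), and siNT_E2 received non-targeting siRNA and 100 pM estradiol (E2) for 24 hours. The groups siER_E2, siFOXA1_E2 and siMDC1_E2 received the same E2 with siRNA against the estrogen receptor (gene ESR1), against FOXA1, a pioneer factor that opens chromatin for the receptor, or against MDC1, a scaffold of the DNA damage response. No knockdown was profiled without E2. Polyadenylated RNA was sequenced, and levels are CPM, counts relative to the library's size from edgeR's cpm function, on library totals scaled by TMM over all 45 libraries. Fold changes are on the log2 scale from edgeR's quasi-likelihood fit within a line. Their standard error (SE) is the absolute log2 change divided by the square root of the F statistic of the test. A change was called at an adjusted p below 0.05 after Benjamini-Hochberg adjustment over all genes of the line. Whether the 3 libraries of each group are separate cultures is not stated in the labels, and p-values therefore measure the spread between these libraries, which may be technical.

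p53 is a sequence-specific activator that accumulates after DNA damage and other stress and binds a pair of decamers in the promoters or first introns of its targets. MDM2 is both a target and the ubiquitin ligase that marks p53 for degradation, which closes a feedback loop. The other targets act in cell cycle arrest (CDKN1A, BTG2), in RNA binding and decay (ZMAT3), in stress and growth signalling (SESN1, TP53INP1), in the supply of deoxyribonucleotides for repair (RRM2B), in death receptor signalling (FAS) and as a secreted stress cytokine (GDF15). Several of them are also known to respond to estrogen, to growth factors or to nutrient stress without p53.

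The RefSeq promoter table (GRCh38.p14, 250 bases before to 50 after each start) held 15 windows for 7 of the 9 genes, MDM2, CDKN1A, BTG2, ZMAT3, SESN1, FAS and GDF15. The p53 response element was searched by name, as an adjacent pair of consensus decamers with no spacer on both strands, and 4 of the 7 genes held such a pair with at most 3 mismatches in 20 bases. The pairs of MDM2, FAS, SESN1 and GDF15 are shown because they met this limit, and the search for pairs was chosen after the windows had been seen. Capitals mark the 20-base pair, and up to 30 bases on each side are in lower case.
MDM2 (chr12:68808893-68808972, plus strand): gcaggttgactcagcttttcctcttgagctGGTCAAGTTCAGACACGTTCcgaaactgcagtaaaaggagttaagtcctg
FAS (chr10:88991279-88991358, plus strand): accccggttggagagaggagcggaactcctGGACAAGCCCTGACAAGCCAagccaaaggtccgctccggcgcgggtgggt
SESN1 (chr6:109008989-109009067, minus strand): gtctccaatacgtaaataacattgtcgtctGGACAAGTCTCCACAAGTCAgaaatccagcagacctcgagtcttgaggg
GDF15 (chr19:18386186-18386205, plus strand): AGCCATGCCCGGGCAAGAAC
The MDM2 pair had 2 mismatches and lay inside the gene, 94 bases before an annotated internal start, with no GENCODE exon over it. The FAS pair also had 2 mismatches, 122 bases before a start and inside an annotated exon. The SESN1 pair had 3 mismatches and lay 49 bases before an internal start, and the GDF15 pair had 3 and began 29 bases after a start, across the junction of untranslated and coding sequence. Of 35116 promoters in the table, 0.285% held an adjacent pair with at most 2 mismatches and 1.12% one with at most 3, while 6.63% held a single decamer with no mismatch. These matches are descriptions of letters, and no binding was measured at any of them.

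Library totals ranged from 21043426 to 36738812 counts. The targeted gene was lower in every knockdown: ESR1 changed by -3.12, -3.68 and -1.004 in MM134, MM330 and HCC1428, FOXA1 by -1.97, -1.86 and -1.64, and MDC1 by -2.13, -2.30 and -1.94 on the log2 scale. The targeted genes also moved under the other siRNAs. ESR1 fell in all 3 lines, in the same line order at -2.29, -0.45 and -0.16 with siFOXA1 and -2.16, -0.96 and -0.12 with siMDC1. MDC1 fell in all 3 as well, at -0.63, -0.98 and -1.17 with siER and -0.35, -0.71 and -0.90 with siFOXA1. These falls are from siNT_E2. With E2 against vehicle, ESR1 had changed by 0.74, -0.071 and -0.42, FOXA1 by -0.18, -0.44 and -0.75 and MDC1 by 0.0035, 0.50 and 1.39. In siER_E2, MDC1 lay above its siNT level in HCC1428 (78.5 against 66.6 CPM) and below it in MM134 (110 against 171) and MM330 (102 against 144). FOXA1 rose with siER by 0.31, 0.19 and 0.63, and with siMDC1 it rose in HCC1428 (0.23) and was not called in MM134 or MM330. The part of these changes in the results of each siRNA was not tested. In 11 of the 45 libraries processed pseudogenes took 0.337 to 0.494% of counts, against 0.123 to 0.158% in the other 34, and HCC1428 siNT and siER_E2 held 1 library each of the lower kind. In HCC1428, mitochondrial transcripts took 11.7 to 14.3% of counts with siNT_E2, against 14.9 to 18.7% across its remaining groups, and the part of this difference in the HCC1428 results was not tested. With the 34 libraries of lower pseudogene share alone, 97 of the 100 tests below gave the same call and 3 lost theirs. The luminal markers KRT8, KRT18, KRT19, EPCAM and GATA3 summed to 5774 to 18790 CPM. Immune markers summed to at most 0.841 CPM and endothelial markers to at most 11.1 CPM. Fibroblast markers summed to 20.6 to 117 CPM, almost all of it COL1A1, while DCN was at 0 in MM134 and MM330 and COL3A1 was at 0 in every library.

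The 9 targets did not move as a group. In the 12 main comparisons (E2 against vehicle, and each knockdown against siNT_E2, in 3 lines), 100 tests were possible, of which 39 were called higher, 36 lower and 25 neither. The missing tests are those of FAS, which did not pass the expression filter in MM134 and MM330. With E2, TP53INP1, BTG2 and SESN1 fell in all 3 lines, MDM2 rose in all 3, and CDKN1A rose in HCC1428 and MM330 and fell in MM134. In bulk RNA, a change in the level per cell and a change in the number of cells that hold the transcript cannot be told apart.

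These counts stand against a wide response of the whole transcriptome. With E2, MM134 had 1 target higher, 6 lower and 1 not called, where 54.4% of all genes tested were called. MM330 had 3, 3 and 2 against 26.3%, and HCC1428 had 3, 4 and 2 against 54.8%. With siER, 5 targets were higher, 3 lower and 0 not called in MM134 (all genes 57.2%), 3, 4 and 1 in MM330 (32.5%) and 3, 3 and 3 in HCC1428 (51.2%). With siFOXA1 the counts were 5, 2 and 1 in MM134 (56.3%), 6, 2 and 0 in MM330 (49%) and 5, 3 and 1 in HCC1428 (53.6%). With siMDC1 they were 3, 2 and 3 in MM134 (50.3%), 1, 2 and 5 in MM330 (20.8%) and 1, 2 and 6 in HCC1428 (29.1%). The median log2 change of the tested targets with E2 was -0.449, 0.005 and -0.102 in MM134, MM330 and HCC1428, where the median of all genes was -0.031, -0.004 and -0.026.

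**Figure D1:**
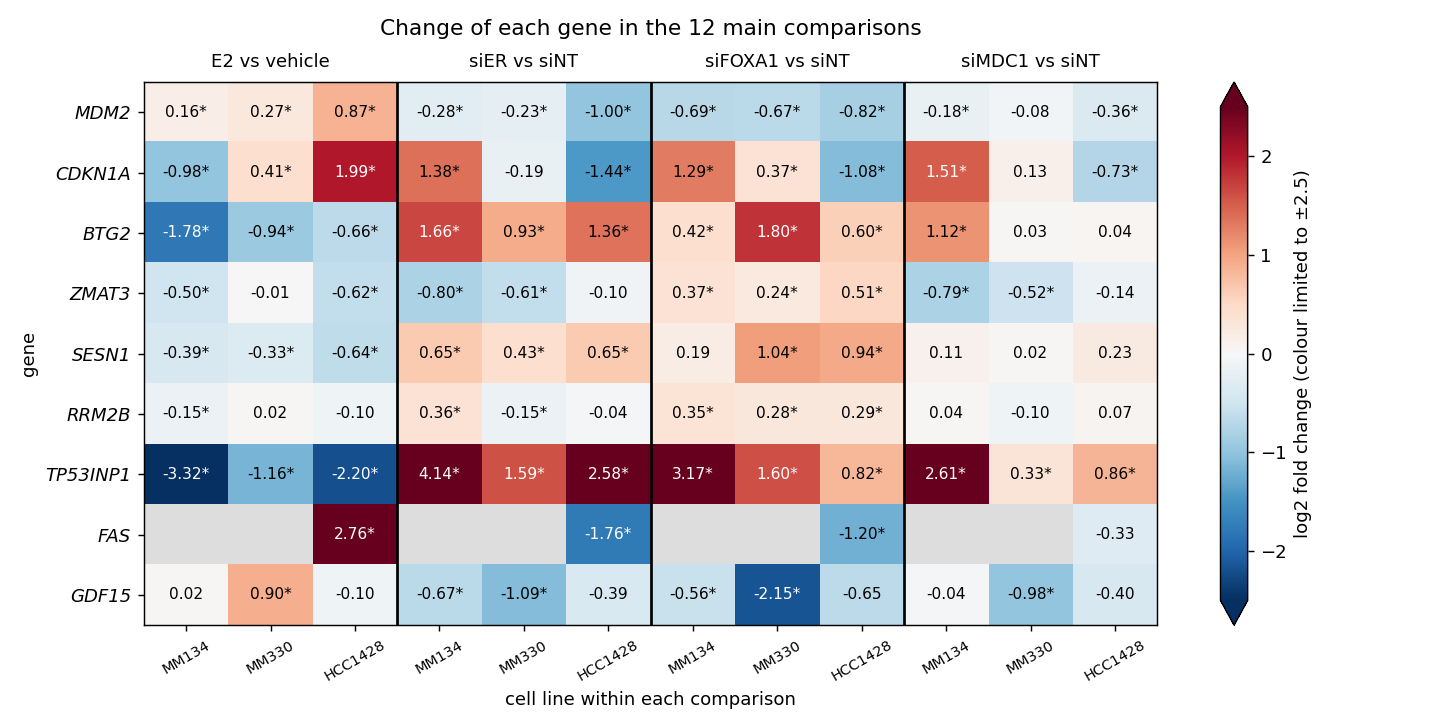
Log2 fold change of the 9 p53 targets (rows) in the 12 main comparisons (columns, 4 in each line), where the knockdowns are each compared with siNT_E2, colour gives the direction and size, a star marks an edgeR adjusted p below 0.05 and grey marks a gene not tested. The row of TP53INP1 is lower with E2 and higher with every knockdown in all 3 lines, while the row of CDKN1A changes colour between MM134 and HCC1428.

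MDM2 (ENSG00000135679.23, chr12:68808176-68850686, GRCh38, plus strand), the ubiquitin ligase that restrains p53, rose with E2 in all 3 lines and fell with siER and siFOXA1 in all 3. In HCC1428, MDM2 stood at 139.5, 138 and 147 CPM in siNT and at 255, 248 and 266 in siNT_E2. It stood at 139, 125 and 131 CPM in siER_E2, at 145, 149 and 151 in siFOXA1_E2 and at 206, 202 and 194 in siMDC1_E2. All 3 E2 libraries with non-targeting siRNA lay above the other 12, the siMDC1_E2 libraries lay between, and the siER_E2 and siFOXA1_E2 libraries lay near those without hormone. The E2 change was 0.87 (SE 0.040, adjusted p = 8.9e-13) on the log2 scale, a level 1.83-fold higher, and the changes with siER, siFOXA1 and siMDC1 were -0.996, -0.82 and -0.36, with edgeR adjusted p = 2.3e-13, 3.2e-12 and 1.5e-06.

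In MM134 the range was narrower. MDM2 stood at 60.9, 61.1 and 62.2 CPM in siNT and at 69.6, 68.3 and 69.6 in siNT_E2. It stood at 58.99, 55.6 and 53.7 CPM in siER_E2, at 42.3, 42.96 and 43.1 in siFOXA1_E2 and at 63.2, 61.3 and 60.4 in siMDC1_E2. The 3 siFOXA1_E2 libraries were the lowest of the line. The log2 changes were 0.16 (SE 0.034, adjusted p = 0.00035) with E2, -0.28 with siER, -0.69 with siFOXA1 and -0.18 with siMDC1, the last 3 with edgeR adjusted p = 3.5e-07, 1.7e-13 and 0.00012.

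In MM330, MDM2 stood at 107, 103 and 112 CPM in siNT and at 126, 128 and 131 in siNT_E2. It stood at 113, 108 and 107 CPM in siER_E2, at 93.9, 72.5 and 75.1 in siFOXA1_E2 and at 117, 128 and 120.2 in siMDC1_E2. The siNT_E2 libraries lay above all of siNT, siER_E2 and siFOXA1_E2 and overlapped those of siMDC1_E2. On the log2 scale the changes were 0.27 (SE 0.080, adjusted p = 0.018) with E2 and -0.23 (SE 0.080, adjusted p = 0.036) with siER, both close to the threshold. The E2 call was lost when siNT_E2 replicate 3 (edgeR adjusted p = 0.052), siNT replicate 2 (0.056) or siNT replicate 1 (0.058) was left out, and among the libraries of lower pseudogene share (0.13). The siER call was lost without siER_E2 replicate 2 (adjusted p = 0.11) or 3 (0.081), without siNT_E2 replicate 1 (0.075), 2 (0.061) or 3 (0.089), and among the libraries of lower pseudogene share (0.16). The change with siFOXA1 was -0.67 (SE 0.082, adjusted p = 3.1e-06), and that with siMDC1 was -0.078 (SE 0.080, adjusted p = 0.6), not called. Exons of MDM2 share 785 bases with the antisense gene AC025423.4, 439 with the processed pseudogene AC025423.2 on its own strand and 133 with the carboxypeptidase M gene on the opposite strand. Reads shared with the pseudogene cannot be assigned to either gene alone. Those shared with the genes of the opposite strand cannot be assigned if counting ignored strand, which is not stated.

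**Figure D2:**
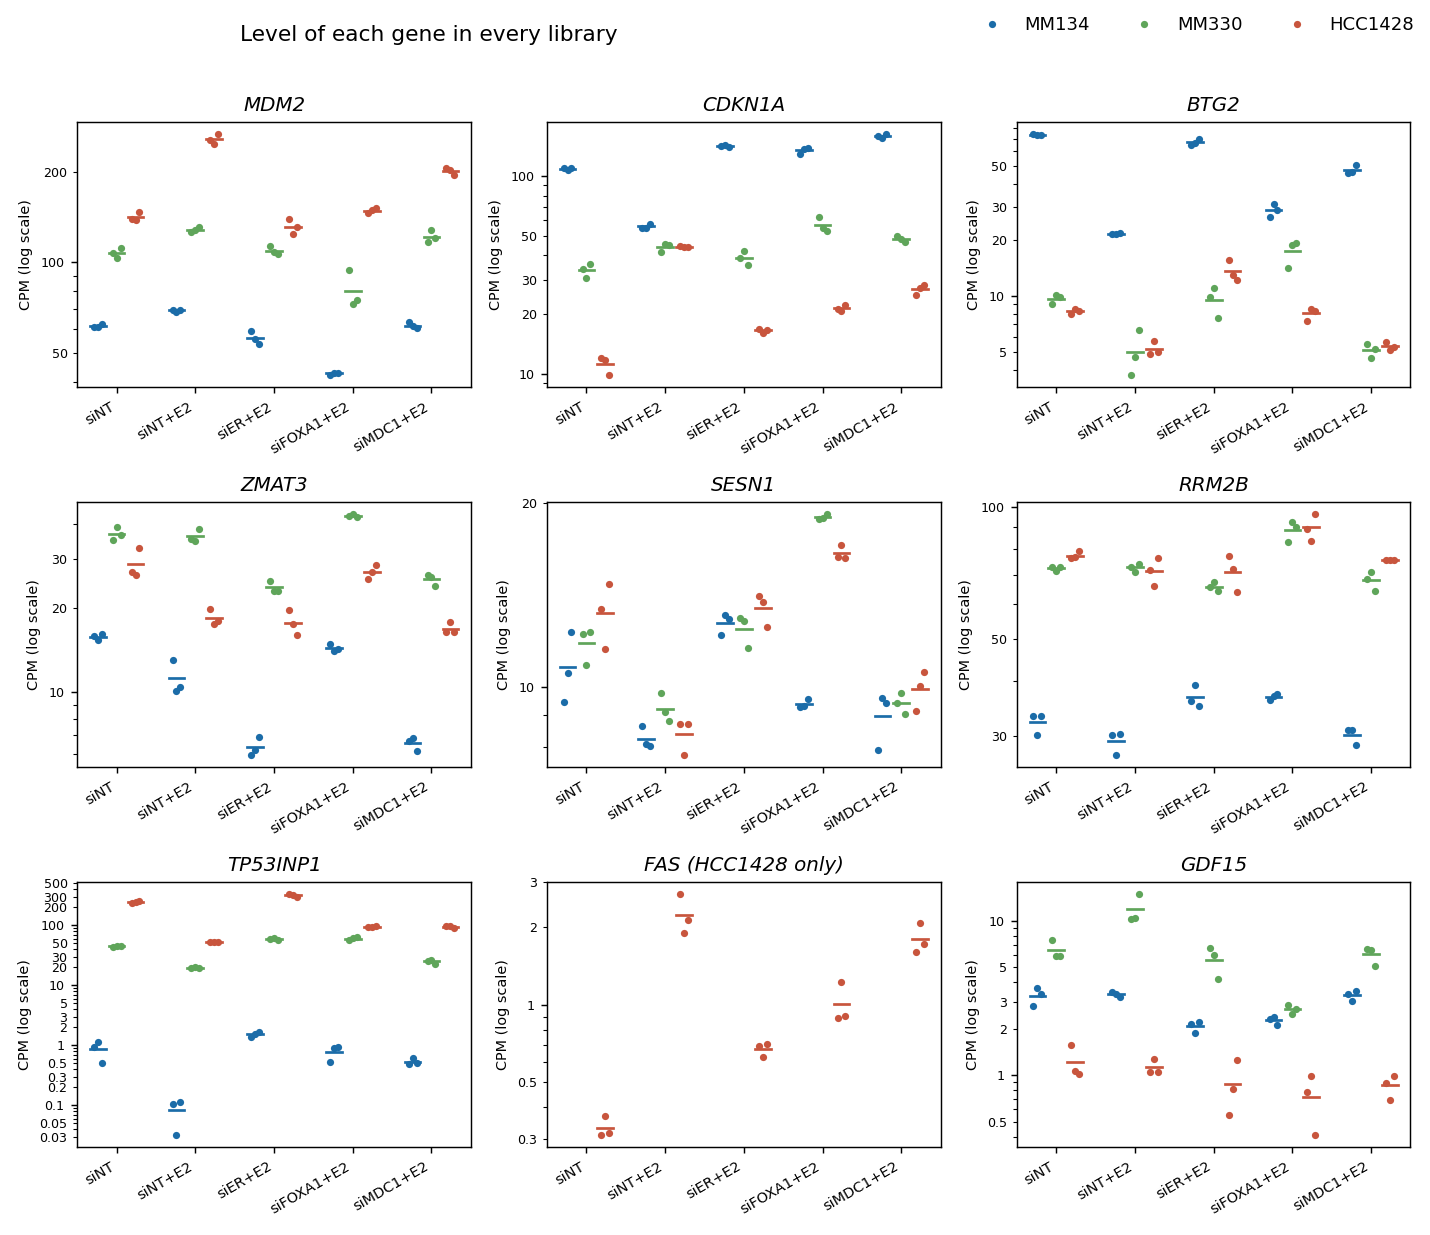
CPM of each p53 target (1 panel per gene, log axis) in every library, grouped by line and by siRNA and hormone group, with points for libraries and bars for the means of 3 libraries; FAS is drawn for HCC1428 alone, since it was at or near 0 in the other lines. In HCC1428, MDM2 reaches 256 CPM with E2 from 142 without it, while TP53INP1 drops from 243 to 52.3 CPM.

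CDKN1A (ENSG00000124762.13, chr6:36676460-36687339, plus strand) encodes p21, the cyclin-dependent kinase inhibitor through which p53 halts the cell cycle, and it moved in opposite directions in MM134 and HCC1428. E2 lowered its level 1.98-fold in MM134 and raised it 3.98-fold in HCC1428. Each of the 3 knockdowns raised it in MM134 and lowered it in HCC1428.

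In MM134, CDKN1A stood at 109.8, 108 and 111 CPM in siNT and at 55.1, 54.97 and 57.6 in siNT_E2. It stood at 143, 145 and 140.3 CPM in siER_E2, at 131, 138 and 139 in siFOXA1_E2 and at 161, 156 and 164 in siMDC1_E2. The siNT_E2 libraries were the lowest, and all 9 knockdown libraries lay above those without hormone. Its log2 changes were -0.98 (SE 0.033, adjusted p = 1.6e-16) with E2, 1.38 (SE 0.032) with siER, 1.29 (SE 0.032) with siFOXA1 and 1.51 (SE 0.032) with siMDC1. The edgeR adjusted p of the 3 knockdowns were 4.3e-19, 8.4e-19 and 1.5e-19.

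In HCC1428, CDKN1A stood at 11.96, 11.8 and 9.87 CPM in siNT and at 44.5, 43.9 and 43.9 in siNT_E2. It stood at 16.8, 16.2 and 16.7 CPM in siER_E2, at 21.2, 20.8 and 22.3 in siFOXA1_E2 and at 25.2, 27.2 and 28.2 in siMDC1_E2. The 5 groups formed 5 separate steps with no overlap, from siNT up through siER_E2, siFOXA1_E2 and siMDC1_E2 to siNT_E2. The log2 changes were 1.99 (SE 0.069, adjusted p = 1.3e-14) with E2, -1.44 (SE 0.066) with siER, -1.08 (SE 0.065) with siFOXA1 and -0.73 (SE 0.064) with siMDC1. The edgeR adjusted p of the 3 knockdowns were 1.3e-12, 7.3e-11 and 1e-07, and against siNT all 3 knockdown groups stayed higher, by 0.55, 0.92 and 1.27.

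MM330 took a place between them. CDKN1A stood at 33.9, 30.6 and 36.1 CPM in siNT and at 41.4, 45.5 and 44.95 in siNT_E2. It stood at 38.6, 41.9 and 35.8 CPM in siER_E2, at 62.2, 54.8 and 53.1 in siFOXA1_E2 and at 49.8, 48.4 and 46.5 in siMDC1_E2. E2 raised it by 0.41 (SE 0.075, adjusted p = 0.00052) on the log2 scale, as in HCC1428, and siFOXA1 raised it by 0.37 (SE 0.074, adjusted p = 0.00056), as in MM134. The changes with siER and siMDC1 were -0.19 (SE 0.075, adjusted p = 0.069) and 0.13 (SE 0.074, adjusted p = 0.27), not called, and the first was called with no filter on low counts (adjusted p = 0.028) and in a fit of the compared libraries only (0.033). Exons of CDKN1A share 146 bases with the non-coding gene DINOL on the opposite strand.

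**Figure D3:**
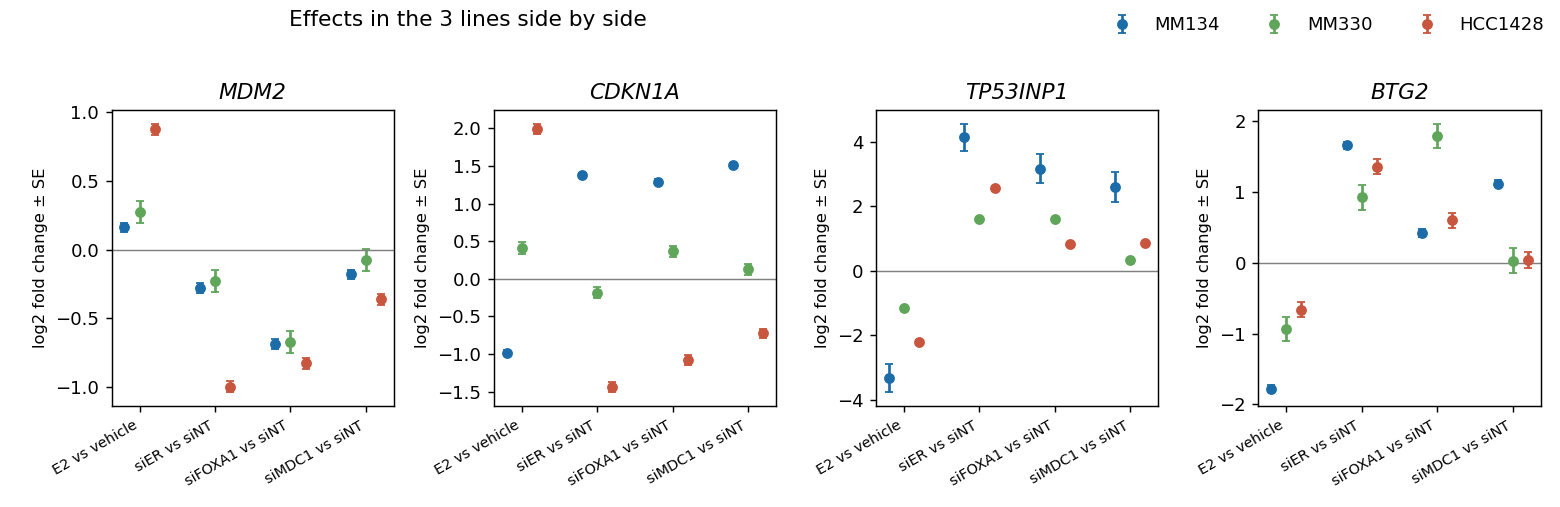
Log2 fold change with its SE for MDM2, CDKN1A, TP53INP1 and BTG2 in the 4 main comparisons, by line, where each knockdown is compared with siNT_E2. For CDKN1A the points of MM134 and HCC1428 lie on opposite sides of 0 in every comparison, at -0.98 and 1.99 with E2.

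BTG2 (ENSG00000159388.5, chr1:203305491-203309602, plus strand), an antiproliferative factor that recruits the deadenylase that shortens mRNA tails, fell with E2 and rose with siER and siFOXA1 in all 3 lines. In MM134, BTG2 stood at 74.1, 73.4 and 72.8 CPM in siNT and at 21.6, 21.5 and 21.7 in siNT_E2. It stood at 64.96, 66.6 and 70.04 CPM in siER_E2, at 26.4, 31.2 and 28.9 in siFOXA1_E2 and at 45.7, 46.2 and 50.4 in siMDC1_E2. The E2 libraries were the lowest of the line, and the siER_E2 libraries lay just under those without hormone. The log2 changes were -1.78 (SE 0.051, adjusted p = 1.1e-17) with E2, 1.66 (SE 0.051) with siER, 0.42 (SE 0.054) with siFOXA1 and 1.12 (SE 0.052) with siMDC1, with edgeR adjusted p = 3.3e-17, 5.7e-07 and 5.4e-14 for the knockdowns.

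BTG2 was lower in the other lines in every group. In MM330 it stood at 8.97, 10.02 and 9.795 CPM in siNT and at 3.74, 4.68 and 6.498 in siNT_E2, and at 14.1, 18.7 and 19.2 in siFOXA1_E2. In HCC1428 it stood at 7.94, 8.51 and 8.28 CPM in siNT and at 4.85, 5.69 and 5.001 in siNT_E2, and at 15.6, 12.9 and 12.1 in siER_E2. The highest group was siFOXA1_E2 in MM330 and siER_E2 in HCC1428, and neither overlapped another group. With E2 the log2 changes were -0.94 (SE 0.17, adjusted p = 0.00048) in MM330 and -0.66 (SE 0.11, adjusted p = 3.5e-05) in HCC1428. With siER they were 0.93 (SE 0.17, adjusted p = 0.00041) and 1.36 (SE 0.11, adjusted p = 2.7e-09), and with siFOXA1 1.80 (SE 0.17, adjusted p = 1.6e-07) and 0.60 (SE 0.11, adjusted p = 0.00012). With siMDC1, BTG2 was not called in MM330 (0.032, SE 0.18, adjusted p = 0.95) or HCC1428 (0.045, SE 0.11, adjusted p = 0.81).

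ZMAT3 (ENSG00000172667.10, chr3:179017223-179072279, minus strand), a zinc finger protein that binds RNA, separated siFOXA1 from the other knockdowns. It rose with siFOXA1 in all 3 lines, while siER and siMDC1 lowered it in MM134 and MM330. In MM134, ZMAT3 stood at 15.9, 15.3 and 16.1 CPM in siNT and at 13.1, 10.1 and 10.4 in siNT_E2. It stood at 5.94, 6.16 and 6.89 CPM in siER_E2, at 14.9, 13.98 and 14.2 in siFOXA1_E2 and at 6.69, 6.804 and 6.15 in siMDC1_E2. E2 lowered it, at a log2 change of -0.50 (SE 0.091, adjusted p = 6.5e-05), and siER and siMDC1 lowered it further, at -0.80 (SE 0.097, adjusted p = 3.1e-07) and -0.79 (SE 0.097, adjusted p = 4.7e-07). With siFOXA1 the change was 0.37 (SE 0.091, adjusted p = 0.0016).

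In MM330 E2 did not change ZMAT3 past the threshold, with 35.1, 39.3 and 36.7 CPM in siNT and 35.4, 35.03 and 38.4 in siNT_E2, overlapping groups and a log2 change of -0.015 (SE 0.064, adjusted p = 0.92). It stood at 25.1, 23.1 and 23.1 CPM in siER_E2, at 42.9, 43.7 and 42.6 in siFOXA1_E2 and at 26.3, 25.9 and 24.1 in siMDC1_E2. The siER_E2 and siMDC1_E2 libraries overlapped each other and lay under all others of the line. Their log2 changes were -0.61 (SE 0.065, adjusted p = 1.3e-06) and -0.52 (SE 0.065, adjusted p = 2e-05), against 0.24 (SE 0.064, adjusted p = 0.0042) with siFOXA1. In HCC1428 ZMAT3 fell with E2, at -0.62 (SE 0.087, adjusted p = 6.4e-06), and rose with siFOXA1 by 0.51 (SE 0.088, adjusted p = 6.9e-05). The HCC1428 levels were 26.9, 26.2 and 33.02 CPM in siNT, 19.9, 17.5 and 18.01 in siNT_E2 and 25.5, 26.99 and 28.6 in siFOXA1_E2. With siER and siMDC1 the HCC1428 libraries overlapped those of siNT_E2, at log2 changes of -0.10 (SE 0.089, adjusted p = 0.39) and -0.14 (SE 0.090, adjusted p = 0.26).

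SESN1 (ENSG00000080546.13, chr6:108986437-109094819, minus strand), a sestrin that restrains mTORC1 under stress, fell with E2 and rose with siER in all 3 lines. In HCC1428 it stood at 13.4, 11.6 and 14.7 CPM in siNT, at 8.699, 7.76 and 8.72 in siNT_E2 and at 14.1, 13.8 and 12.6 in siER_E2. It stood at 16.4, 17.1 and 16.2 CPM in siFOXA1_E2 and at 9.14, 10.04 and 10.6 in siMDC1_E2. The siFOXA1_E2 libraries were the highest of HCC1428 and the siNT_E2 libraries the lowest, without overlap with other groups. With E2 the log2 changes of SESN1 were -0.39 (SE 0.095, adjusted p = 0.0013) in MM134, -0.33 (SE 0.077, adjusted p = 0.0035) in MM330 and -0.64 (SE 0.090, adjusted p = 6.6e-06) in HCC1428. With siER they were 0.65 (SE 0.094, adjusted p = 3.8e-06), 0.43 (SE 0.077, adjusted p = 0.00033) and 0.65 (SE 0.090, adjusted p = 6.3e-06). With siFOXA1, SESN1 rose in MM330 by 1.04 (SE 0.076, adjusted p = 8.3e-09) and in HCC1428 by 0.94 (SE 0.090, adjusted p = 4.4e-08), and in MM134 the change was 0.19 (SE 0.096, adjusted p = 0.091), not called. In MM330 its level went from 9.79, 9.11 and 8.81 CPM in siNT_E2 to 18.8, 18.9 and 19.2 in siFOXA1_E2. No line passed the threshold with siMDC1, at 0.11, 0.021 and 0.23 with edgeR adjusted p = 0.39, 0.92 and 0.071, the last 0.047 without siMDC1_E2 replicate 1. Exons of SESN1 share 363 bases with the antisense gene AL390208.1.

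TP53INP1 (ENSG00000164938.13, chr8:94925972-94949411, minus strand) is a stress-induced protein that promotes p53 activity and autophagy. It moved the most among the 9 targets in the E2 comparison of each line except HCC1428, where the fitted change of FAS was larger, on few counts. It fell with E2 and rose with each of the 3 knockdowns in all 3 lines. In HCC1428, TP53INP1 stood at 238, 240.2 and 250.4 CPM in siNT and at 51.6, 52.3 and 52.99 in siNT_E2. It stood at 336, 320.2 and 301 CPM in siER_E2, at 95.2, 91.9 and 97.1 in siFOXA1_E2 and at 98.5, 97.8 and 89.6 in siMDC1_E2. The siER_E2 libraries lay above those without hormone, while the siFOXA1_E2 and siMDC1_E2 libraries overlapped each other between siNT_E2 and siNT. On the log2 scale the changes were -2.20 (SE 0.045, adjusted p = 9.4e-18) with E2, a level 4.59-fold lower, and 2.58 (SE 0.046), 0.82 (SE 0.046) and 0.86 (SE 0.046) with siER, siFOXA1 and siMDC1. The edgeR adjusted p of the 3 knockdowns were 2.4e-17, 2.2e-11 and 2.1e-10.

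In MM330, TP53INP1 stood at 43.96, 44.3 and 45.2 CPM in siNT and at 19.4, 20 and 19.7 in siNT_E2. It stood at 60.01, 61.6 and 57.4 CPM in siER_E2, at 55.9, 60.7 and 63.2 in siFOXA1_E2 and at 25.8, 26.01 and 22.9 in siMDC1_E2. Here siER_E2 and siFOXA1_E2 overlapped each other above siNT, and siMDC1_E2 stayed nearer to siNT_E2. Its log2 changes were -1.16 (SE 0.051, adjusted p = 3.3e-11) with E2 and 1.59 (SE 0.051), 1.60 (SE 0.051) and 0.33 (SE 0.053) with siER, siFOXA1 and siMDC1. The edgeR adjusted p of the 3 knockdowns were 4.5e-13, 8.7e-13 and 2e-04.

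In MM134 the gene was barely expressed, with 28, 43 and 14 counts in the siNT libraries and 4, 1 and 3 counts in the siNT_E2 libraries. The siER_E2 libraries held 1.36, 1.53 and 1.66 CPM, the siFOXA1_E2 libraries 0.526, 0.893 and 0.919 CPM and the siMDC1_E2 libraries 0.482, 0.613 and 0.513 CPM. All 12 libraries of the other groups lay above the 3 of siNT_E2. The fitted log2 changes were -3.32 (SE 0.44, adjusted p = 1.2e-06) with E2 and 4.14 (SE 0.42, adjusted p = 2e-08) with siER, and they rest on 8 counts in siNT_E2, so their size is known less well than in the other lines.

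RRM2B (ENSG00000048392.11, chr8:102204502-102239118, minus strand), the p53-inducible small subunit of ribonucleotide reductase, varied least, between -0.15 and 0.36 on the log2 scale in the main comparisons. It rose with siFOXA1 in all 3 lines, by 0.35 (SE 0.055, adjusted p = 1.3e-05) in MM134, 0.28 (SE 0.040, adjusted p = 1.9e-05) in MM330 and 0.29 (SE 0.062, adjusted p = 0.00059) in HCC1428. In MM330 its level was 73.1, 70.99 and 74.1 CPM in siNT_E2 and 82.97, 92.3 and 90.1 in siFOXA1_E2, without overlap. With siER it rose in MM134 by 0.36 (SE 0.056, adjusted p = 9.4e-06) and fell in MM330, at -0.15 (SE 0.040, adjusted p = 0.0088). The MM134 levels were 30.03, 27.1 and 30.3 CPM in siNT_E2 and 35.9, 39.3 and 35.1 in siER_E2. The E2 change in MM134, -0.15 (SE 0.056, adjusted p = 0.025), had overlapping groups and lost its call when siNT_E2 replicate 2 (adjusted p = 0.15) or siNT replicate 3 (0.097) or 1 (0.1) was left out. The siER change in MM330 lost its call among the libraries of lower pseudogene share (adjusted p = 0.14) and with no filter on low counts (0.057). E2 was not called in MM330 (0.024, adjusted p = 0.76) or HCC1428 (-0.10, adjusted p = 0.19, and 0.029 without siNT_E2 replicate 4), and siMDC1 was not called in any line, with log2 changes of 0.035, -0.10 and 0.070.

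FAS (ENSG00000026103.21, chr10:88990582-89015785, plus strand), the death receptor for FAS ligand, was measurable in HCC1428 alone. MM134 held 0 counts in its 15 libraries together, which allows a level of up to 0.00621 CPM (3 counts over the line). MM330 held 18 counts, spread over 9 of its 15 libraries. In HCC1428, FAS stood at 0.312, 0.368 and 0.317 CPM in siNT and at 2.71, 1.896 and 2.14 in siNT_E2. It stood at 0.692, 0.628 and 0.703 CPM in siER_E2, at 0.886, 1.22 and 0.907 in siFOXA1_E2 and at 1.61, 2.08 and 1.72 in siMDC1_E2. The groups stepped up from siNT through siER_E2 and siFOXA1_E2 to siMDC1_E2 and siNT_E2, and the last pair overlapped. E2 raised it by 2.76 (SE 0.25, adjusted p = 1.6e-08) on the log2 scale, and siER and siFOXA1 lowered it, at -1.76 (SE 0.22, adjusted p = 2.1e-06) and -1.20 (SE 0.22, adjusted p = 0.00013). The siNT libraries together held 28 counts, those of siER_E2 59 and those of siFOXA1_E2 78, so the size of these changes is known less well. With siMDC1 the change was -0.33 (SE 0.21, adjusted p = 0.25), not called. This order of groups is the one CDKN1A showed in HCC1428. Exons of FAS share 380 bases with ACTA2 on the opposite strand. Reads of that stretch cannot be assigned if counting ignored strand, which is not stated.

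GDF15 (ENSG00000130513.6, chr19:18374731-18389176, plus strand), a secreted cytokine of the TGF-beta superfamily that marks cell stress, responded most in MM330. There GDF15 stood at 7.57, 5.89 and 5.92 CPM in siNT and at 10.3, 10.4 and 15.02 in siNT_E2. It stood at 6.67, 5.98 and 4.19 CPM in siER_E2, at 2.85, 2.498 and 2.696 in siFOXA1_E2 and at 6.57, 6.503 and 5.12 in siMDC1_E2. The siNT_E2 libraries were the highest of the line and the siFOXA1_E2 libraries the lowest, each without overlap. The log2 changes were 0.90 (SE 0.18, adjusted p = 0.00096) with E2, -1.09 (SE 0.18, adjusted p = 0.00014) with siER, -2.15 (SE 0.19, adjusted p = 8.1e-08) with siFOXA1 and -0.98 (SE 0.18, adjusted p = 0.00069) with siMDC1. In MM134 it fell with siER, at -0.67 (SE 0.15, adjusted p = 0.00062), and with siFOXA1, at -0.56 (SE 0.15, adjusted p = 0.0028), from 3.49, 3.37 and 3.204 CPM in siNT_E2 to 2.14, 1.88 and 2.21 and to 2.31, 2.37 and 2.12. With E2 and siMDC1 the MM134 changes were 0.020 (SE 0.15, adjusted p = 0.92) and -0.043 (SE 0.15, adjusted p = 0.84). In HCC1428 none of the 4 comparisons was called, with log2 changes of -0.10 (SE 0.32), -0.39 (SE 0.33), -0.65 (SE 0.34) and -0.40 (SE 0.33). Its siNT_E2 libraries held 35, 29 and 36 counts there, and at this depth changes of the size of their SE could not be detected.

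The lines differed in the levels of these genes before any hormone was given. In siNT, TP53INP1 was at 243 CPM in HCC1428, 44.5 in MM330 and 0.856 in MM134, and the MM134 value was -8.09 (SE 0.096, adjusted p = 6.1e-43) against HCC1428 on the log2 scale. CDKN1A ran the other way, with 109.5 CPM for MM134, 33.5 for MM330 and 11.2 for HCC1428, and a log2 difference of 3.29 (SE 0.065, adjusted p = 2e-35) between MM134 and HCC1428. BTG2 was at 73.4 CPM in MM134 against 9.595 and 8.24, and MM330 and HCC1428 did not differ past the threshold (0.22, SE 0.12, adjusted p = 0.11). MDM2 and RRM2B were lowest in MM134, at 61.4 and 32.2 CPM, against 142 and 77.5 in HCC1428. SESN1 differed least, at 10.8, 11.8 and 13.2 CPM in MM134, MM330 and HCC1428. Of the 8 targets tested, 8 differed between MM134 and HCC1428, 5 between MM330 and HCC1428 and 7 between MM134 and MM330, where 75.6%, 73% and 72.4% of all genes did.

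Per kilobase of annotated exon, so that genes can be set side by side, the highest of the 9 in siNT was CDKN1A in MM134 (35.9 CPM per kb), RRM2B in MM330 (13.1) and TP53INP1 in HCC1428 (42.8). In MM134, BTG2 came next at 26.6 CPM per kb, followed by RRM2B at 5.81 and MDM2 at 4.62. ZMAT3, SESN1 and GDF15 lay between 0.583 and 3.84 CPM per kb in every line.

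The difference between lines in each effect was tested directly, as an interaction in a fit of all 45 libraries. Of 96 such tests on 8 targets (FAS was left out), 51 were called, where between 13.8% and 30.5% of all genes were called in the 12 interaction comparisons. CDKN1A and TP53INP1 differed in 12 of 12 tests each, BTG2 in 7, ZMAT3 in 6, MDM2 and GDF15 in 5 each, and SESN1 and RRM2B in 2 each. The TP53INP1 tests that involve MM134 rest on few counts. Its E2 difference between MM134 and HCC1428 (edgeR adjusted p = 0.048) lost its call in most alternatives. For CDKN1A the E2 effect was -2.95 (SE 0.087, adjusted p = 5.7e-27) in MM134 minus HCC1428 and -1.37 (SE 0.081, adjusted p = 5.7e-17) in MM134 minus MM330. Opposite calls in the 2 lines of a pair stood behind 7 of the 51, 6 of them of CDKN1A and 1 of RRM2B. For TP53INP1 all lines shared the direction and differed in size, by 1.04 (SE 0.087, adjusted p = 7.4e-13) between MM330 and HCC1428 with E2. MDM2 responded to E2 more in HCC1428 than in MM134 (-0.68, SE 0.077, adjusted p = 1.4e-09) and MM330 (-0.60, SE 0.075, adjusted p = 1.9e-08), while the responses of MM134 and MM330 did not differ past the threshold (-0.081, SE 0.077, adjusted p = 0.53).

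Whether a knockdown under E2 brought a target back to its level without hormone was read from the knockdown groups against siNT. With siER, BTG2 did not differ from siNT past the threshold in MM134 (-0.11, SE 0.045, adjusted p = 0.057) or MM330 (-0.010, SE 0.16, adjusted p = 0.98), and SESN1 did not in MM330 (0.10, SE 0.076, adjusted p = 0.44) or HCC1428 (0.0085, SE 0.087, adjusted p = 0.97). TP53INP1 exceeded its siNT level with siER in all 3 lines, by 0.82, 0.44 and 0.38, with edgeR adjusted p = 0.043, 5.6e-06 and 1.7e-06. MDM2 in HCC1428 lay -0.12 from siNT with siER (adjusted p = 0.038, overlapping groups) and 0.049 with siFOXA1 (adjusted p = 0.34), and 0.51 with siMDC1 (adjusted p = 3.9e-09). CDKN1A was higher than in siNT with every knockdown in every line, 9 of 9 comparisons that share the siNT libraries of each line. The log2 differences lay between 0.23 and 1.27, where between 8.66% (MM330 siER) and 28.9% (MM134 siFOXA1) of all genes were called higher. With E2 alone, CDKN1A had fallen in MM134 (-0.98) and risen in MM330 (0.41) and HCC1428 (1.99). Each knockdown group lay above siNT_E2 in MM134 and below it in HCC1428. E2 alone had not changed ZMAT3 past the threshold in MM330 and had lowered it in MM134 (-0.50) and HCC1428 (-0.62). In HCC1428, siER and siMDC1 did not move it from siNT_E2 past the threshold (-0.10 and -0.14). ZMAT3 lay below siNT with siER (-1.30, -0.63 and -0.72) and with siMDC1 (-1.29, -0.53 and -0.76) in MM134, MM330 and HCC1428. Of all genes, 15.2%, 11.5% and 9.5% were called lower there with siER and 23.2%, 17.1% and 22.2% with siMDC1. Several of the siER comparisons with siNT turned on single libraries or on the setting. The TP53INP1 call in MM134 was lost without siER_E2 replicate 1 (edgeR adjusted p = 0.057), 2 (0.085) or 3 (0.13), without siNT replicate 1 (0.069) or 3 (0.2), with a replicate block (0.051), in DESeq2 (0.052), with the compared libraries only (0.052), with no filter on low counts (0.075) and at lower pseudogene share (0.096). For CDKN1A in MM330, whose groups overlapped, the call ended without siER_E2 replicate 1 (adjusted p = 0.091) or 2 (0.18), without siNT replicate 1 (0.096) or 2 (0.19), with a replicate block (0.06), with RLE scaling (0.059) and at lower pseudogene share (0.18). The MDM2 call in HCC1428 ended without siER_E2 replicate 2 (adjusted p = 0.21) or 3 (0.096) or siNT replicate 1 (0.058) or 3 (0.16), with RLE scaling (0.068), with no filter on low counts (0.079), with the compared libraries only (0.081) and at lower pseudogene share (0.38). BTG2 in MM134 passed the threshold without siER_E2 replicate 3 (adjusted p = 0.016), with a replicate block (0.047), with no filter on low counts (0.048), with the compared libraries only (0.033) and at lower pseudogene share (0.011). In these comparisons with siER, 32.3%, 20.2% and 21.2% of all genes were called in the 3 lines, with siFOXA1 56.8%, 46.9% and 48.5%, and with siMDC1 49.1%, 34.9% and 48.4%.

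The knockdowns were also compared with each other. Between siMDC1_E2 and siER_E2, TP53INP1 was lower with siMDC1 in all 3 lines, at log2 differences of -1.53, -1.26 and -1.72, with edgeR adjusted p = 0.00041, 9.1e-12 and 4.4e-15, where 45.6%, 30.6% and 41.1% of all genes were called. BTG2 was also lower with siMDC1 than with siER in all 3, at -0.54, -0.89 and -1.32. ZMAT3 did not differ past the threshold between these 2 knockdowns in any line, at 0.011 (SE 0.10), 0.094 (SE 0.066) and -0.043 (SE 0.090), and its groups overlapped. Between siMDC1_E2 and siFOXA1_E2, ZMAT3 was lower with siMDC1 in all 3 lines (-1.15, -0.76 and -0.65) and MDM2 was higher (0.51, 0.59 and 0.46), where 49.8%, 48.8% and 45.4% of all genes were called. Over all 30 within-line comparisons, 250 tests of the targets gave 93 higher, 91 lower and 66 not called.

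As a description of how the targets ran together, group means of log2(CPM + 0.5), centred within each line, were correlated over the 15 groups, which share libraries and the line's scaling. BTG2 and SESN1 had r = 0.806 and BTG2 and TP53INP1 r = 0.794. MDM2 ran against TP53INP1 (r = -0.773) and SESN1 (r = -0.77), less so in MM134. Within MM134, MM330 and HCC1428, MDM2 and TP53INP1 had r = -0.507, -0.788 and -0.871. For MDM2 and SESN1 the values were -0.211, -0.99 and -0.889. MDM2 and CDKN1A had r = 0.267, and CDKN1A and BTG2 r = 0.042. Both values pool lines with opposite signs. Within MM134, MM330 and HCC1428 (5 group means each), MDM2 and CDKN1A had r = -0.552, -0.443 and 0.9. For CDKN1A and BTG2 the values were 0.594, 0.208 and -0.689. Among 8497 genes at 10 CPM or more in some group of each line, those most like MDM2 were PLCG1 (r = 0.967), NELFA (0.961) and AP1M1 (0.952). Those most like CDKN1A were RBBP8NL (0.858), DAB2IP (0.849) and NPC2 (0.835), and those most like GDF15, which itself did not reach that level, were NUDT14 (0.917), SNRNP27 (0.888) and CDS1 (0.867).

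Other direct targets of p53, 47 genes listed from general knowledge, moved in both directions too. With E2, 10 rose and 18 fell of 43 tested in MM134 (median log2 change -0.118, all genes -0.031), 16 rose and 10 fell of 45 in MM330 (0.059, all genes -0.004), and 18 rose and 13 fell of 44 in HCC1428 (0.045, all genes -0.026). Of all genes, 27.2%, 13.7% and 29.1% were called higher with E2 in the 3 lines and 27.2%, 12.6% and 25.7% lower. The nuclease gene AEN rose by 1.29 in MM134 and 1.76 in HCC1428, and PMAIP1, which encodes the BH3-only protein NOXA, by 1.90 in MM134. DDB2, a DNA damage sensor of nucleotide excision repair, rose by 1.52 in HCC1428, and TSKU by 1.31 in MM330. The Kit ligand gene KITLG fell in MM134 (log2 change -0.82) and HCC1428 (-0.85). BBC3, which encodes the BH3-only protein PUMA, fell in MM134 (-0.80), and the kinase gene PLK2 fell in MM330 (-1.75).

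The same list also moved in both directions with each knockdown. Differences between lines were not tested for the list. In MM134 more of it rose than fell with each siRNA, 19 against 8 with siER, 27 against 7 with siFOXA1 and 26 against 6 with siMDC1, at medians of 0.186, 0.341 and 0.275 where all genes had 0.042, 0.01 and 0. Of all MM134 genes, 29.3%, 27.9% and 25.4% were called higher in these comparisons and 27.9%, 28.5% and 25% lower. In MM330 the counts were 12 against 7, 18 against 13 and 14 against 2, at medians of -0.02, 0.143 and 0.123, where all genes had 0.003, -0.01 and 0.002, and 15.1%, 24.4% and 10.4% of them were called higher and 17.4%, 24.6% and 10.4% lower. In HCC1428 they were 13 against 17, 13 against 17 and 12 against 8, at medians of -0.045, -0.079 and 0.021, where all genes had -0.005, -0.032 and -0.011, and 22.5%, 24.1% and 13.2% of them were called higher and 28.7%, 29.5% and 15.9% lower. With siMDC1, CCNG1, which encodes cyclin G1, rose by 1.17 in MM134 and 0.78 in MM330, and the small GTPase gene RAP2B rose in all 3 lines, by 1.17, 0.81 and 0.42. The rise of CCNG1 in MM134 was also seen with siER (1.16). PMAIP1 fell in MM134 with siER (-1.79), siFOXA1 (-1.59) and siMDC1 (-1.22), and AEN fell in HCC1428 with all 3 as well (-1.27, -1.38 and -0.62). With siFOXA1, PLK2 rose by 2.32 in MM330 and the tetraspanin gene CD82 by 1.87 in MM134, and DDB2 fell in MM330 (-1.34) and HCC1428 (-1.20). PLK2 also rose with siER in MM330 (1.22), and DDB2 also fell with siER in HCC1428 (-0.96). TRIAP1, a small p53-regulated inhibitor of apoptosis, fell with siFOXA1 in MM134 (-1.02) and MM330 (-0.96).

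Of 17 genes that encode regulators or relatives of p53, 5 rose and 6 fell with E2 in MM134, 5 rose and 1 fell in MM330, and 7 rose and 3 fell in HCC1428, at medians of 0.045, 0.067 and 0.125, where all genes had -0.031, -0.004 and -0.026. The shares of all genes called higher with E2 were 27.2%, 13.7% and 29.1%, and 27.2%, 12.6% and 25.7% were called lower. With siFOXA1, 9, 7 and 9 fell and 1, 2 and 3 rose in the 3 lines, at medians of -0.221, -0.096 and -0.196, where all genes had 0.01, -0.01 and -0.032. Of all genes, 28.5%, 24.6% and 29.5% were called lower with siFOXA1 and 27.9%, 24.4% and 24.1% higher. With siER, 6, 3 and 8 fell and 3, 1 and 3 rose, and with siMDC1 4, 0 and 4 fell and 5, 3 and 3 rose. All genes were called lower at 27.9%, 17.4% and 28.7% with siER and 25%, 10.4% and 15.9% with siMDC1, and higher at 29.3%, 15.1% and 22.5% and 25.4%, 10.4% and 13.2%. CHEK1, the checkpoint kinase of the replication stress response, rose with E2 by 0.31 in MM134, 1.10 in MM330 and 1.80 in HCC1428. It fell with siFOXA1 in all 3 lines, at -1.32, -2.28 and -1.42 in MM134, MM330 and HCC1428. CHEK1 also fell with siER in MM330 (-0.54) and HCC1428 (-1.52), and with siMDC1 in MM134 (-0.90) and HCC1428 (-0.63). TP73, a p53 relative, rose with E2 by 2.90 in HCC1428 and 0.63 in MM330. TP63, the other relative, rose with siFOXA1 by 4.75 in MM330 and 2.51 in HCC1428. HIPK2, a kinase that phosphorylates p53, fell in MM134, at -1.79 with siFOXA1, -0.63 with siER and -0.34 with E2. In MM330 it fell with siER, at -0.64. MDM4, the partner of MDM2 in restraining p53, fell with E2 (-0.47) and rose with siER (0.23) in HCC1428. All of these had adjusted p below 0.05 in edgeR and no overlap between groups.

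**Figure D4:**
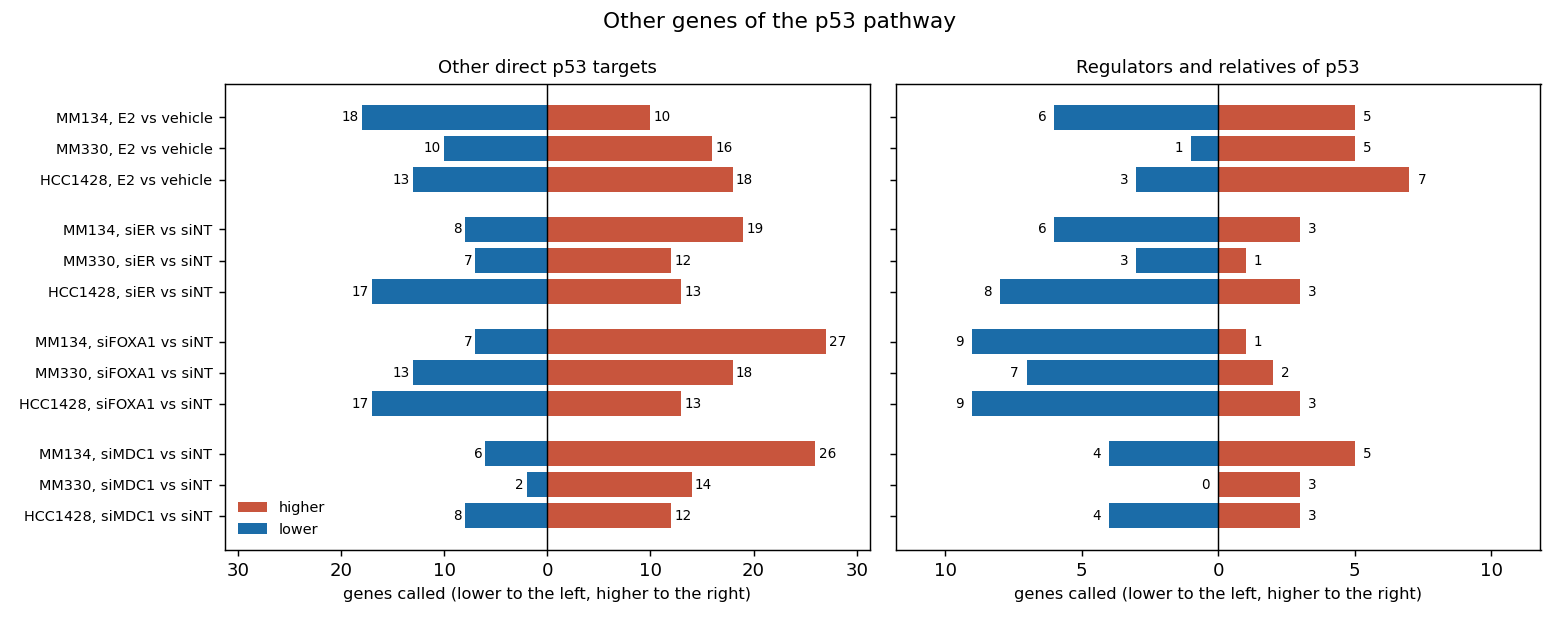
Number of genes called higher (bars to the right) and lower (bars to the left) at edgeR adjusted p below 0.05 in each main comparison. The panels show the other direct p53 targets and the regulators and relatives of p53, by line, where each knockdown is compared with siNT_E2. With siMDC1 in MM134, 26 of 43 other targets are higher and 6 lower, where 25.4% of all genes are higher and 25% lower.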

How the data were processed

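Polyadenylated RNA of 45 libraries was sequenced, and the authors deposited 1 table of raw counts per gene symbol, with no normalisation. Per the submitters' processing notes, STAR 2.6.0a, limma and the build GRCh38 (hg38) were used; the tool, annotation and strand setting of the counting are not given in the sources used here. Groups came from the labels. The 9 targets, all gene lists and the rules for named genes were chosen with earlier results of these data known. Named were the 9 targets, the targeted genes, for each list and main comparison up to 2 called genes of either direction with the largest changes (at 10 CPM or more, groups not overlapping), of which the text gives a part, and the 3 genes most like MDM2, CDKN1A and GDF15. Not every gene that these rules name is reported here.

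The tests used edgeR 4.0.16 under R 4.3.3 (filterByExpr by group, TMM, glmQLFit and glmQLFTest, Benjamini-Hochberg, adjusted p below 0.05), the 15 libraries of a line in 1 fit and differences between lines in a fit of 45. The script was tested on simulated data for E2 against vehicle in MM134 alone. Far fewer genes were changed there than were called in the data, so a response this wide was not simulated. Within each line, 10 comparisons were made, 30 in all. Levels are CPM on TMM-scaled totals of all 45 libraries, so their ratios can differ by a few percent from fitted fold changes. Positions and exon lengths came from GENCODE release 29. The alternatives tried were DESeq2 1.42.0, RLE scaling, no filter on low counts, a fit of the compared libraries only, a replicate block, the libraries of lower pseudogene share, and leaving out each library. Depth was 21043426 to 36738812 counts per library, reads carried no molecular identifiers, and the limit at 0 counts covers counting error only.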

Additional observations from a re-analysis of the deposited data

Results flagged for a closer look

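Each of the following differences between lines in an effect had an edgeR adjusted p below 0.05 in the fit of all 45 libraries. Values are differences of log2 fold changes, first line minus second line, and E2 stands for siNT_E2 against siNT and each siRNA for its E2 group against siNT_E2. MDM2 differed between MM134 and HCC1428 by -0.68 with E2 and 0.66 with siER. The difference for MDM2 between MM330 and HCC1428 was -0.60 with E2, 0.74 with siER and 0.28 with siMDC1. CDKN1A differed between MM134 and HCC1428 by -2.95 with E2, 2.76 with siER, 2.32 with siFOXA1 and 2.24 with siMDC1. The difference for CDKN1A between MM330 and HCC1428 was -1.58 with E2, 1.23 with siER, 1.41 with siFOXA1 and 0.85 with siMDC1. The difference for CDKN1A between MM134 and MM330 was -1.37 with E2, 1.54 with siER, 0.92 with siFOXA1 and 1.39 with siMDC1. In MM134 and HCC1428 CDKN1A moved in opposite directions in all 4 comparisons. BTG2 differed between MM134 and HCC1428 by -1.09 with E2 and 1.08 with siMDC1. The difference for BTG2 between MM134 and MM330 was -0.81 with E2, 0.71 with siER, -1.39 with siFOXA1 and 1.10 with siMDC1. The difference for BTG2 between MM330 and HCC1428 was 1.17 with siFOXA1. ZMAT3 differed between MM330 and HCC1428 by 0.60 with E2, -0.55 with siER and -0.38 with siMDC1. The difference for ZMAT3 between MM134 and MM330 was -0.46 with E2. The difference for ZMAT3 between MM134 and HCC1428 was -0.76 with siER and -0.65 with siMDC1. SESN1 differed between MM134 and HCC1428 by -0.79 with siFOXA1. The difference for SESN1 between MM134 and MM330 was -0.85 with siFOXA1. RRM2B differed between MM134 and HCC1428 by 0.34 with siER. The difference for RRM2B between MM134 and MM330 was 0.48 with siER. With siER, RRM2B was called higher in MM134 and lower in MM330. TP53INP1 differed between MM134 and HCC1428 by -1.12 with E2, 1.502 with siER, 2.30 with siFOXA1 and 1.75 with siMDC1. The difference for TP53INP1 between MM330 and HCC1428 was 1.04 with E2, -1.01 with siER, 0.75 with siFOXA1 and -0.53 with siMDC1. The difference for TP53INP1 between MM134 and MM330 was -2.16 with E2, 2.51 with siER, 1.55 with siFOXA1 and 2.28 with siMDC1. The fold changes of TP53INP1 had the same direction in every line, and those of MM134 rest on few counts. GDF15 differed between MM330 and HCC1428 by 1.01 with E2 and -1.54 with siFOXA1. The difference for GDF15 between MM134 and MM330 was -0.85 with E2, 1.59 with siFOXA1 and 0.95 with siMDC1. Of these 51 differences, 43 kept their call in every alternative and 8 lost it in some. The E2 difference of TP53INP1 between MM134 and HCC1428 lost its call in 12 of 15 alternatives, with adjusted p up to 0.29 without MM134 siNT_E2 replicate 2, and without the same library its siER difference between MM134 and HCC1428 (adjusted p = 0.063) and its siFOXA1 difference between MM134 and MM330 (0.056) were lost as well. Without MM330 siNT_E2 replicate 3 the GDF15 differences with E2 between MM330 and HCC1428 (adjusted p = 0.058) and between MM134 and MM330 (0.11), its siMDC1 difference between MM134 and MM330 (0.074) and the siMDC1 difference of ZMAT3 between MM330 and HCC1428 (0.069) were lost. The GDF15 E2 difference between MM330 and HCC1428 was also lost without HCC1428 siNT replicate 1 (0.081), and that between MM134 and MM330 without MM134 siNT replicate 2 (0.074) or MM330 siNT replicate 2 (0.053) or 3 (0.054). The ZMAT3 difference was also lost without HCC1428 siMDC1_E2 replicate 2 (0.07), HCC1428 siNT_E2 replicate 3 (0.062) or 4 (0.054) or MM330 siMDC1_E2 replicate 3 (0.065). Among the libraries of lower pseudogene share alone, the siER difference of RRM2B between MM134 and HCC1428 was lost (adjusted p = 0.16), as was the E2 difference of GDF15 between MM330 and HCC1428 (0.23).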

How the results depend on the processing

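No result on the targets reversed a call. Of 4656 values under alternative settings, 4493 stayed on their side of the threshold, 122 lost a call and 41 gained one. Of the 4493, 96 changed sign, none of them called, and the rest kept their direction. Of the 75 calls in the 12 main comparisons, 71 held in every alternative and 4, of MDM2 in MM330 and RRM2B in MM134 and MM330, did not, as given beside them, and 3 of the 25 values not called passed the threshold in some. Of the 109 calls in the other comparisons within lines, 89 held in every alternative, as did 18 of the 20 differences in siNT levels. DESeq2 kept 248 of 250 values on their side and RLE scaling 367 of 370. With the replicate number as a block, 246 of 250 were kept, 3 calls were lost and 1 was gained; deviations of same-numbered libraries correlated at medians of 0 in MM134 and -0.01 in MM330 and HCC1428, from -0.40 to 0.33, -0.49 to 0.64 and -0.56 to 0.57, so the numbers were not taken to pair the samples, and HCC1428 siNT_E2 carried the numbers 2, 3 and 4. Among the libraries of lower pseudogene share, fewer genes were called over the whole table: 3092 against 4690 with E2, 2208 against 3710 with siMDC1, 1900 against 3604 for siER_E2 against siNT and 3571 against 5462 for siMDC1_E2 against siER_E2 in MM330, 2176 against 3875 for siER_E2 against siNT in HCC1428, and 3595 against 5428 for the siER difference between MM330 and HCC1428; fewer libraries entered these fits. Depth limits GDF15 in HCC1428, TP53INP1 in MM134 and FAS in all 3 lines.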
